A study of Mus musculus with 2 samples.

Results

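Footprints of 25 bp or more were the subject: the wide end of the stretches called as protected from DNase I in open chromatin of naive resting CD8 T cells. DNase-seq maps where the nuclease cuts nuclear DNA, and a footprint is a short run inside an open region where cuts are scarce. The samples were 2 DNase-seq libraries of 1 group, labelled biological replicates 2 and 3, of CD8-positive alpha-beta T cells from virgin male adult B6CASTF1/J mice at 2 months of age, with no treatment named. Such mice are first-generation hybrids of the C57BL/6 and CAST/EiJ strains, so each cell carries a CAST/EiJ haplotype that the mm10 reference does not hold. The 2 libraries share a donor label but not a biosample label, and no source used here says if they are 2 animals. Members were chosen by their measured width alone: all intervals of each library's deposited footprint list whose end minus start was 25 bp or more. Replicate 2 had 11806 of them among 146244 footprints (8.07%), and replicate 3 had 412 among 29967 (1.37%). The comparison class was footprints under 12 bp, which numbered 94569 in replicate 2 and 22696 in replicate 3. Between them lay 39869 footprints of 12 to 24 bp in replicate 2 and 6859 in replicate 3.

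A protein that sits on DNA shields its site from the nuclease, so the length of a footprint depends on how much DNA a factor, or several neighbouring factors, contact. CTCF is a zinc-finger protein that holds chromatin loops and domain borders together with the cohesin ring. Its row of zinc fingers reads an unusually long site: the central fingers contact the core motif, and at a subset of sites the last fingers contact a further stretch upstream of it. Promoters of widely used genes instead carry short sites for factors such as the KLF/SP family (GC boxes), NRF1 (genes of mitochondria and growth) and CREB/ATF (response to cyclic AMP), often several within a few turns of the helix. Among the markers used to check the cell label, 5 of the 6 CD8 T cell markers had a stricter promoter peak in replicate 2 (Cd3e, Cd3d, Cd3g, Cd8b1 and Lck) and 1 of 6 in replicate 3 (Cd8b1). None of the 2 CD4, 3 B cell, 3 myeloid, 3 erythroid and 2 NK cell markers had one in either library. In the longer lists used for promoters further down, 1 of 8 B cell genes had such a peak in each library, and 2 of 8 myeloid genes had one in replicate 2 and 1 of 8 in replicate 3. Replicate 3 had fewer stricter peaks, 17061 against 38223 in replicate 2. Each list was called on its own library, so values are given per library. With 2 libraries, an exact sign-flip permutation test of a mean difference cannot go below p = 0.5, and no difference was called significant. The 95% intervals (Wilson for a share, Newcombe for a difference of shares) cover counting error only and treat footprints as independent, although several can lie in 1 peak.

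The following sequences show what wide footprints hold, for the 4 motifs that were most raised in them. For each motif they are the 2 footprints wide in both libraries that hold it and had the longest stretch shared between the libraries. The whole replicate 2 footprint is printed 5′ to 3′ on the strand given, from the GRCm38.p6 reference of RefSeq (mm10). Capitals mark the CTCF core, the TGACGTCA of CREB/ATF, the GCGCATGC of NRF1 or the CCCCGCCC of KLF/SP on either strand, and, upstream of the core at Ptma, the stretch described further down. Names are those of the nearest protein-coding gene.
CTCF, Ptma (chr1:86501759-86501805, plus strand): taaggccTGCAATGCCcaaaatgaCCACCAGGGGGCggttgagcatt
CTCF, Gm10260 (chr13:97939056-97939090, minus strand): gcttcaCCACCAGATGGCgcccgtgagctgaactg
CREB/ATF, Mturn (chr6:54681537-54681570, plus strand): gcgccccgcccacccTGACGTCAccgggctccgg
CREB/ATF, Sik1 (chr17:31856009-31856044, plus strand): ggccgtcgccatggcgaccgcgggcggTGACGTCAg
NRF1, Rtf1 (chr2:119675040-119675079, plus strand): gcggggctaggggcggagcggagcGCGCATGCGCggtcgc
NRF1, Abhd10 (chr16:45743032-45743071, plus strand): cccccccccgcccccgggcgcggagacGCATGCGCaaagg
KLF/SP, Dcaf4 (chr12:83520341-83520385, plus strand): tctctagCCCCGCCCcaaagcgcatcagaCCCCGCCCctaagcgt
KLF/SP, Rhpn2 (chr7:35333988-35334027, plus strand): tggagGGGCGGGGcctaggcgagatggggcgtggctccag
The CTCF footprints lay away from promoters. That at Ptma was 24.9 kb before the start site, between genes. The other was 178441 bp before the start site of Gm10260, which is only its nearest one, and in an intron of a protein-coding gene. The other 6 were promoter footprints, from 8 bp before the Rtf1 start site to 223 bp before that of Sik1. At Dcaf4, which encodes a substrate receptor of a ubiquitin ligase, 2 GC boxes lay inside the same footprint. Those of Mturn and Abhd10 held a GC box as well as the named motif.

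Wide footprints differed in number between the libraries, and their width distributions differed in shape. Their mean share of all footprints was 4.72% ± 4.74 (SD, n = 2). They covered 20.9% of all footprint bases in replicate 2 and 3.91% in replicate 3. The median wide footprint was 30 bp in replicate 2 and 28 bp in replicate 3, and the widest were 98 bp and 46 bp. At 50 bp or more there were 110 footprints in replicate 2 and 0 in replicate 3. The limit of 25 bp cut through a smooth slope: 1262 footprints of 25 bp and 1313 of 24 bp in replicate 2, and 86 and 82 in replicate 3. The slope of replicate 2 had a shoulder, with 1580 footprints of 39 to 46 bp, where replicate 3 had 11. The gap was also present where stricter peaks of both libraries overlapped: 15.2% of footprints were wide in replicate 2 (8466 of 55731, 95% interval 14.9 to 15.5) and 1.53% in replicate 3 (395 of 25870, 1.38 to 1.68). The part of sequencing depth in that gap was not tested.

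**Figure D1:**
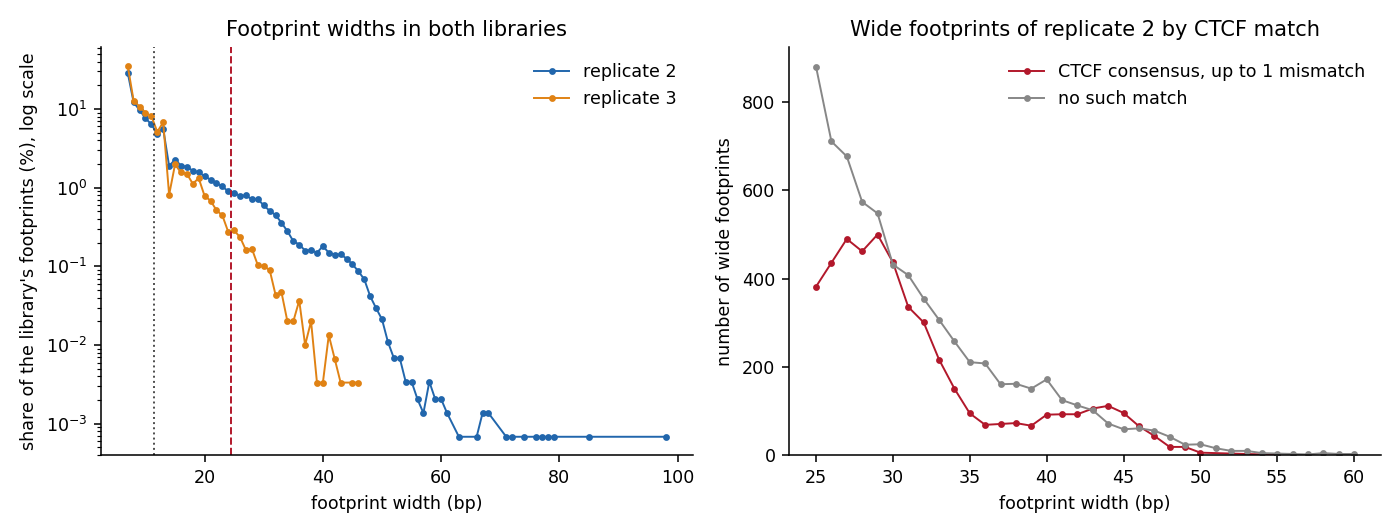
Left, the share of each library's footprints at each width in bp, in percent on a log scale, with the limit of the narrow class dotted and that of the wide class dashed. Right, the number of wide replicate 2 footprints at each width up to 60 bp, apart for those whose central 41 bp held the CTCF consensus with up to 1 mismatch and for the rest. The CTCF curve has a peak at 29 bp, where 500 footprints lie, and a smaller one above 40 bp.

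Wide footprints sat in stronger and more central parts of open regions than narrow ones. In replicate 2, 96.1% of wide and 69.1% of narrow footprints lay in a stricter peak. The shares were 97.3% and 88.3% in replicate 3. The median signal of that peak, in the authors' deposited signal, was 3.03 for wide and 1.69 for narrow footprints in replicate 2, and 7.0 and 4.52 in replicate 3. Just outside the limit, at 20 to 24 bp, it was 3.57 in replicate 2 and 6.44 in replicate 3. Just inside, at 25 to 29 bp, it was 2.77 and 6.64. The median distance to the peak's centre was 14 bp for wide and 54.5 bp for narrow footprints in replicate 2, and 15 bp and 35 bp in replicate 3. Few peaks of low signal held any: 3.52% of replicate 2 peaks in the lowest quartile of signal had a wide footprint, and 14.4%, 33.6% and 51.2% in the next 3 quartiles. In replicate 3 these shares were 0 of 4352 peaks (which allows up to 0.0689%), 0.517%, 1.94% and 6.86%. In the highest quartile of replicate 2, 66.2% of distal and 45.9% of promoter peaks held one.

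At promoters, taken as 1000 bp either side of a protein-coding start site, wide footprints were not more frequent than narrow ones. Near the start site they lay upstream of it more often. The median distance of promoter footprints from it was 72 bp for wide and 118 bp for narrow ones in replicate 2, and 65 bp and 64 bp in replicate 3. In replicate 2, 43.0% of wide footprints overlapped a promoter, against 46.9% of narrow and 49.2% of all footprints. The difference was -4.0 percentage points (95% interval -4.94 to -3.05). In replicate 3 the shares were 69.7% of wide, 71.3% of narrow and 71.3% of all footprints, a difference of -1.66 points (-6.30 to 2.62) that spans 0. The mean difference was -2.83 ± 1.65 points (SD, n = 2). This sign depended on the window: within 250 bp of a start site the difference was 2.66 points in replicate 2 and -0.576 in replicate 3. In regions with peaks of both libraries it was -19.4 points in replicate 2 (51.2% of wide and 70.5% of narrow footprints) and -4.32 in replicate 3 (68.6% and 72.9%).

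Close to start sites the wide class was skewed upstream. Of the 4423 wide footprints of replicate 2 centred within 300 bp of a start site, 50.9% lay in the last 100 bp before it (95% interval 49.4 to 52.4), against 30.7% of 33798 narrow ones. In replicate 3 it was 57.8% of 263 wide footprints (51.8 to 63.6), against 48.2% of 14590 narrow ones. Downstream, up to 300 bp, lay 24.8% of wide and 44.4% of narrow footprints in replicate 2, and 17.5% and 30.5% in replicate 3. The remaining wide footprints of replicate 2 were 22.9% in introns, 31.1% between genes and 3.10% in exons. In replicate 3 these shares were 10.7%, 17.5% and 2.18%.

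**Figure D2:**
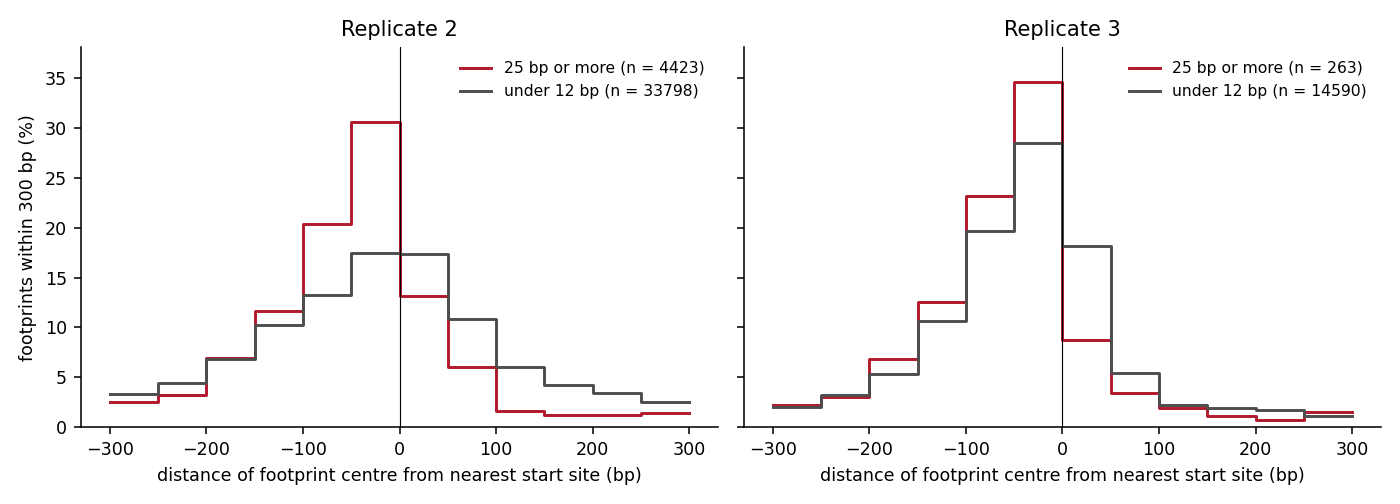
Share of footprints centred within 300 bp of a protein-coding start site, in percent per 50 bp, by distance from that site in bp, with upstream negative. Wide footprints are in red and narrow ones in grey; in both libraries the red line is above the grey from 100 bp upstream to the start site and below it in the first 100 bp downstream.

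Wide footprints were richer in G and C than narrow ones in both libraries. Their mean GC content was 64.8% ± 12.1 in replicate 2 (SD over 11806 footprints), against 60.9% ± 18.96 for narrow ones. The difference was 3.83 points (95% interval 3.58 to 4.08). In replicate 3 it was 70.5% ± 10.7 against 65.6% ± 17.1, a difference of 4.90 points (3.84 to 5.95). The mean difference was 4.36 ± 0.757 points (SD, n = 2). Both promoter and distal footprints showed it: at promoters 71.01% against 67.9% in replicate 2 and 73.7% against 68.7% in replicate 3, and at distal sites 60.1% against 54.8% and 63.1% against 57.8%. The DNA around them did not: windows of the same width 100 bp to each side held 54.6% for wide and 56.0% for narrow footprints in replicate 2, and 59.4% and 60.2% in replicate 3. CpG dinucleotides numbered 7.27 per 100 bp in wide and 6.08 in narrow footprints of replicate 2, and 9.33 and 7.50 in replicate 3. In regions with peaks of both libraries the direction turned in replicate 2, with 8.30 in wide and 8.84 in narrow footprints, and not in replicate 3, with 9.35 and 7.66. In those regions the replicate 2 difference in GC content shrank to 0.278 points (-0.0588 to 0.614), while that of replicate 3 was 4.20 points. Against footprints of 12 to 24 bp it was -1.37 points in replicate 2 and 1.39 in replicate 3, so the rise in GC content was from under 12 bp to the middle widths. Just outside the limit, at 20 to 24 bp, mean GC content was 68.0% in replicate 2 and 70.1% in replicate 3; just inside, at 25 to 29 bp, it was 66.3% and 70.9%.

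Of 26 consensus motifs searched on both strands, CTCF had the highest mean ratio of its share in wide windows to that in narrow ones, a rank set mainly by replicate 2. Windows of 41 bp centred on each footprint were used, so that width itself gave no more sequence to search. The CTCF consensus, matched in full, was in 16.9% of wide windows of replicate 2 (1994 of 11806, 95% interval 16.2 to 17.6), against 0.932% of narrow and 3.02% of all footprint windows. In replicate 3 it was in 8.98% of wide windows (37 of 412, 6.59 to 12.1), against 2.93% of narrow and 4.01% of all. Windows 100 bp to each side of the wide footprints held it in 0.114% in replicate 2 and 0.121% in replicate 3. The difference between wide and narrow was 16.0 points in replicate 2 and 6.05 in replicate 3, with a mean of 11.0 ± 7.01 (SD, n = 2). In replicate 3 the KLF/SP site differed by more, 13.6 points. The share was larger with mismatches allowed, a setting chosen after the data were seen.

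Outside promoters CTCF matches were more frequent in wide than in narrow windows of both libraries, by an amount that depended on the mismatches allowed. The full consensus was in 27.7% of 6735 distal wide windows of replicate 2, against 1.69% of distal narrow ones, and in 20.8% of 125 in replicate 3, against 9.20%. With up to 1 mismatch, it was in 65.1% of distal wide windows of replicate 2 (95% interval 63.9 to 66.2), against 5.87% of distal narrow ones and 0.549% of flanking windows. In replicate 3 it was in 55.2% (46.5 to 63.6), against 22.0% of distal narrow ones and 1.60% of flanks. With up to 2 mismatches the distal shares reached 78.7% of wide and 11.2% of narrow windows in replicate 2, and 72.8% and 30.1% in replicate 3; flanks of wide footprints then held 3.46% and 4.80%. At promoters the share with up to 1 mismatch was 8.91% of wide and 0.840% of narrow windows in replicate 2, and 11.5% and 1.97% in replicate 3. Across the width limit the distal share was 65.3% at 25 to 29 bp and 45.5% at 20 to 24 bp in replicate 2, and 55.2% and 60.7% in replicate 3, where the share was already high from 15 bp.

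At promoters the motif most often held was the GC box of the KLF/SP family, CCCCGCCC, an activator site of widely used genes. It was in 17.02% of 5071 promoter wide windows of replicate 2, against 4.48% of promoter narrow windows, and in 29.97% of 287 in replicate 3, against 9.30%. Windows flanking these wide footprints held it in 4.85% and 4.88%. Over all placements it was in 7.90% of wide, 2.61% of narrow and 4.34% of all windows of replicate 2, and in 20.9%, 7.29% and 8.73% in replicate 3. A pair or more of GC boxes, as at Dcaf4, was in 2.13% of promoter wide and 0.304% of promoter narrow windows of replicate 2, and in 4.18% and 0.371% in replicate 3. Away from promoters the GC box was in 1.04% of wide and 0.963% of narrow windows of replicate 2. In replicate 3 it was in 0 of 125 distal wide windows, which allows up to 2.40%, and in 2.29% of narrow ones. Across the width limit, promoter windows held the GC box in 15.5% at 20 to 24 bp and 14.6% at 25 to 29 bp in replicate 2. In replicate 3 these shares were 19.8% and 28.8%.

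NRF1 and CREB/ATF sites were rarer but raised against narrow windows as well. The NRF1 site GCGCATGC was in 1.47% of wide, 0.362% of narrow and 0.777% of all windows in replicate 2, and in 4.61%, 1.92% and 2.14% in replicate 3. The rise in NRF1 was at promoters: 3.02% of wide and 0.511% of narrow windows in replicate 2, and 6.27% and 2.43% in replicate 3. At distal footprints it was 0.312% and 0.229% in replicate 2, with an interval of the difference that spans 0. Across the width limit, promoter windows held NRF1 in 5.12% at 20 to 24 bp and 2.48% at 25 to 29 bp in replicate 2. In replicate 3 these shares were 3.44% and 7.07%. Over all placements, footprints of 12 to 24 bp held NRF1 in 1.56% of windows in replicate 2 and 2.74% in replicate 3. The CREB/ATF site TGACGTCA was in 1.39% of wide, 0.222% of narrow and 0.463% of all windows in replicate 2, and in 2.43%, 0.947% and 1.16% in replicate 3. The ratio of the wide to the narrow share was 18.1 for CTCF, 6.26 for CREB/ATF, 4.08 for NRF1 and 3.03 for KLF/SP in replicate 2. For replicate 3 the ratio was 3.07 for CTCF, 2.56 for CREB/ATF, 2.41 for NRF1 and 2.86 for KLF/SP, so the order below CTCF differed between the libraries. The mean ratio was 10.6 ± 10.7, 4.41 ± 2.61, 3.24 ± 1.18 and 2.95 ± 0.114 for the same 4 motifs (SD, n = 2). These 4 were the motifs whose difference had an interval above 0 in both libraries, and 0 of 26 had one below 0 in both. At least 1 of the 4, with 1 CTCF mismatch allowed, was in 51.2% of wide and 6.66% of narrow windows of replicate 2, and in 48.8% and 17.6% in replicate 3.

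Other motifs moved in both directions in replicate 2 and were too few to compare in replicate 3. In replicate 2, 12 of the 26 motifs were rarer in wide than in narrow windows with an interval below 0, 11 were more frequent and 3 spanned 0. RUNX sites (TGTGGTT), bound by factors that shape the CD8 lineage, were in 0.822% of wide and 1.44% of narrow windows. For TCF/LEF (ATCAAAG), whose factors maintain naive T cells, the shares were 0.229% and 0.523%. AP-1 sites (TGANTCA), used after T cell activation, were in 0.330% and 0.889%. Sites of other factors active in lymphocytes moved both ways. ISRE/IRF, FOXO, NFAT, PU.1 and NF-kB sites were rarer in wide windows, with intervals below 0. ETS was higher, in 1.26% of wide and 0.669% of narrow windows. So was ZEB, whose site lies inside some forms of the CTCF consensus, in 5.99% and 3.23%. The mean ratio of ZEB over both libraries was 0.993 ± 0.234 at promoters and 1.72 ± 0.775 at distal footprints (SD, n = 2). The ETS rise was at promoters, with 2.76% and 1.15%. Distal windows held ETS in 0.134% and 0.247%, with an interval of the difference that spans 0. In replicate 3 ETS was in 1.21% of wide and 1.80% of narrow windows and ZEB in 3.64% and 3.05%, with intervals of the difference that span 0. In replicate 3, 9 motifs including RUNX, TCF/LEF and AP-1 had 0 of 412 wide windows, which allows up to 0.728%. Narrow windows of that library held RUNX in 0.573%, TCF/LEF in 0.234% and AP-1 in 0.516%, so a difference could not be shown at this number. There 21 of 26 intervals spanned 0, and the TATA box joined the 4 leading motifs with 1.21% of wide and 0.507% of narrow windows, 5 wide footprints in all.

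**Figure D3:**
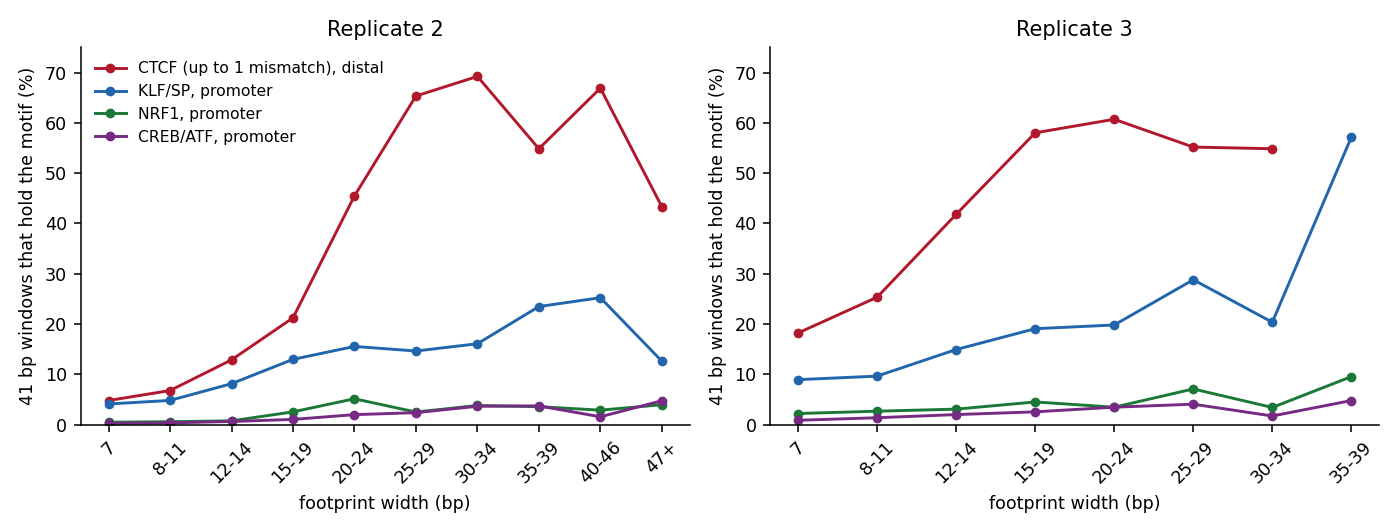
Share of 41 bp windows that held a motif, in percent, by footprint width in bp, for CTCF with up to 1 mismatch at distal footprints and for KLF/SP, NRF1 and CREB/ATF at promoter footprints; points with under 20 footprints are left out. In replicate 2 the CTCF line is at 4.77% at 7 bp and at 69.2% at 30 to 34 bp, while in replicate 3 it is at 60.7% at 20 to 24 bp.

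A search of all words of 6 bases, with reverse complements merged, put words that occur in the CTCF core first. Of the 10 words with the highest mean ratio of wide to narrow windows, 6 lie inside a form of the CTCF consensus. The first of them, AGGGGG, was in 20.4% of wide and 4.75% of narrow windows of replicate 2, and in 25.5% and 8.37% in replicate 3. The next by ratio, GCCCCC, was in 22.9% and 5.87% in replicate 2, and in 31.3% and 11.2% in replicate 3. Inside the core lie also CACTAG, then the word CAGGGG, next ACTAGA and lastly CCACTA. Outside it were AGCGCC, followed by the word GCGCCC, then ACAGCG and finally CAGTAC, and their shares of wide windows ran from 2.43% to 21.4% over both libraries. The count of 6 covers the core alone, not the bases beside it. CAGTAC is a word that the upstream stretch of CTCF sites, described further down, can hold. After windows with a CTCF match of up to 2 mismatches were left out, the leading words at promoters were GACGTC and ACGTCA, both parts of the CREB/ATF site, and TGCGCA, which overlaps the NRF1 site. GACGTC was then in 4.67% of wide and 0.926% of narrow promoter windows of replicate 2, and in 6.07% and 2.24% in replicate 3. GCCCCC stayed among the 10 leading promoter words, so its rise was not limited to windows with a CTCF match. It was there in 16.7% of wide and 6.75% of narrow windows of replicate 2, and in 26.2% and 9.07% in replicate 3. A share of wide footprints held none of the 26 motifs, with 1 CTCF mismatch allowed: 40.8% in replicate 2 (4819 footprints) and 43.7% in replicate 3 (180), against 78.4% and 68.3% of narrow ones.

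CTCF footprints of replicate 2 came in a shorter and a longer kind. Where the full consensus was inside a wide footprint of 25 to 29 bp, the median footprint reached 5 bp beyond the core on its 5′ side and 10 bp on its 3′ side (n = 1015). At 40 to 46 bp it reached 22 bp on the 5′ side and again 10 bp on the 3′ side (n = 207). Between these, at 30 to 34 bp, it reached 6 bp and 14 bp (n = 631), and at 35 to 39 bp 16 bp and 10 bp (n = 119). The first step in width was thus mostly on the 3′ side, and the footprints of 40 to 46 bp were longer on the 5′ side. Sites with 19 to 26 bp on the 5′ side were called long (n = 265, median width 43 bp) and those with 3 to 8 bp short (n = 1520, median width 29 bp), limits set after these edges were seen. The following are the 4 long and then the 4 short examples of highest peak signal that lay outside transcript ends, also chosen after their values were seen. They are printed in the direction of the core, with the core in capitals, and with the upstream stretch in capitals where it was found.
Long, Chd2 (chr7:73618503-73618546, minus strand): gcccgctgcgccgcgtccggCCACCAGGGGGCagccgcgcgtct
Long, Qrich2 (chr11:116446184-116446233, minus strand): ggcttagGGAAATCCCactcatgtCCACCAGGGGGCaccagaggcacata
Long, Parp16 (chr9:65196940-65196984, plus strand): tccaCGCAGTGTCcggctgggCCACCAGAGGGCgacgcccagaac
Long, Lag3 (chr6:124903729-124903770, plus strand): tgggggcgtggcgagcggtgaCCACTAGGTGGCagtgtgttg
Short, Stmn1 (chr4:134478171-134478199, minus strand): gtcctgCCACCAGGGGGCagcagccacca
Short, Gm31371 (chr8:20122193-20122217, plus strand): taggggCCACCAGAGGGCgcgaggc
Short, H2-Oa (chr17:34101653-34101684, plus strand): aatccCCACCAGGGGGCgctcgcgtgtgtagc
Short, Pde4d (chr13:109776278-109776311, plus strand): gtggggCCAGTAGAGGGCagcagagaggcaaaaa
The long footprint nearest to Lag3, an inhibitory receptor of T cells, spanned 42 bp, and the short one nearest to Stmn1 spanned 29 bp.

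The long kind held the known upstream stretch of CTCF sites far more often. Counted from the first base of the core, the bases from -17 to -9 were compared with TGCANTNCC, allowing 2 mismatches and a shift of 1 base. It was found at 80.4% of long sites (213 of 265, 95% interval 75.2 to 84.7) and at 16.5% of short sites (251 of 1520, 14.7 to 18.5). The same letters at the mirrored distance downstream were found at 6.79% of long and 3.22% of short sites. The pattern was written with the base composition of these sites in view, so those shares are a description.

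Footprints of replicate 3, which played no part in sorting the sites, differed over the upstream stretch as well. They overlapped it at 32.8% of long and 9.74% of short sites, a difference of 23.1 points (95% interval 17.5 to 29.1). On the 3′ side, at the mirrored stretch, the shares were 29.4% and 29.4% (difference 0.0261 points, -5.64 to 6.20). Over the core they were 47.9% and 36.6%. The long sites had a median peak signal of 2.31, against 1.82 for short ones, and 92.8% and 93.3% lay outside promoters. The part of signal in the difference was not tested. In replicate 3 itself, 0 of its 37 wide CTCF footprints were long, which allows up to 8.11%, and 21 were short. Among all footprints with the core inside or across them, the upstream stretch was found at 26.9% of 1992 wide and 19.01% of 342 narrow sites in replicate 2, and at 32.4% of 37 and 22.3% of 247 in replicate 3.

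**Figure D4:**
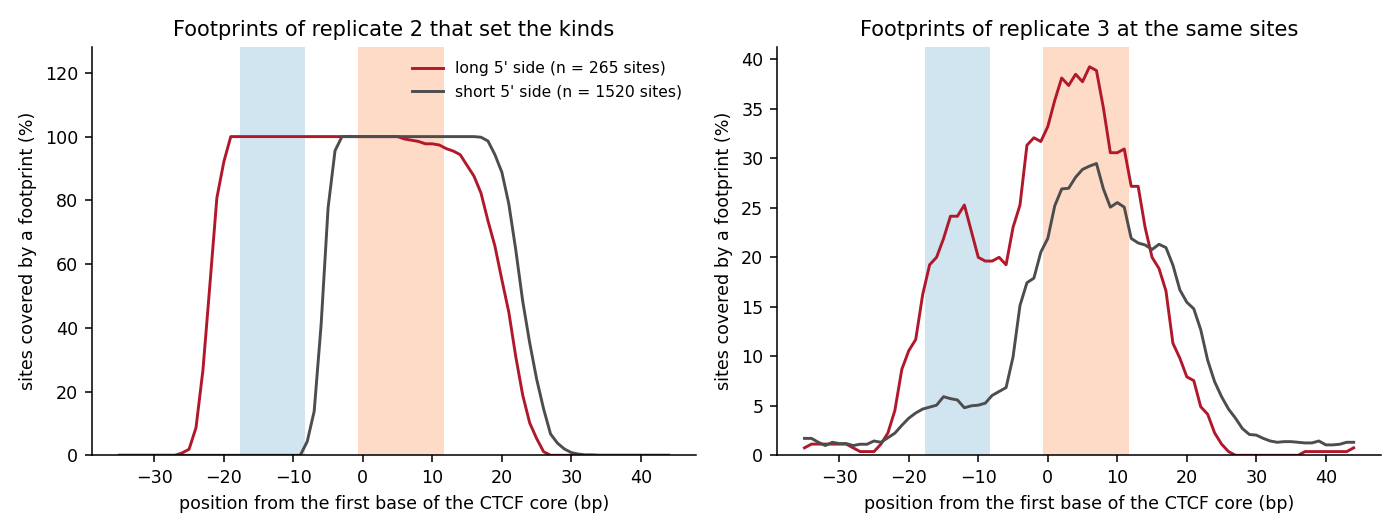
Share of CTCF sites covered by a footprint at each position, in percent, by distance in bp from the first base of the core, for sites with a long or a short 5′ side in replicate 2. The core is shaded orange and the upstream stretch blue. The left panel shows the replicate 2 footprints that sorted the sites; the right panel shows replicate 3, where the long sites have a separate hump over the upstream stretch.

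Wide footprints overlapped those of the other library more often than narrow ones, by an amount that depended on how a match was defined. Of the wide footprints of replicate 2, 51.1% overlapped a footprint of replicate 3 by 1 bp or more, against 4.59% of narrow and 12.3% of all footprints. The difference was 46.5 points (95% interval 45.6 to 47.5). Of the wide footprints of replicate 3, 99.3% (409 of 412) overlapped 1 of replicate 2, against 60.1% of narrow and 66.9% of all, a difference of 39.1 points (37.6 to 39.9). The mean difference was 42.8 ± 5.25 points (SD, n = 2). A wide interval overlaps others more readily, so centres were compared too. The centre lay within 5 bp of another centre for 27.0% of wide and 3.24% of narrow footprints of replicate 2, and for 70.6% and 32.5% of those of replicate 3. At 20 to 24 bp, just outside the limit, this share was already 21.97% in replicate 2 and 65.8% in replicate 3. At 25 to 29 bp it was 23.83% and 70.2%, so most of its rise lay below the limit. Overlap by 1 bp or more was 33.6% at 20 to 24 bp and 42.1% at 25 to 29 bp in replicate 2. In replicate 3 it was 97.9% and 98.9%. With 50% or more of each footprint shared, the libraries differed most: 11.2% of wide and 2.45% of narrow footprints of replicate 2 had a match (a difference of 8.79 points), and 94.4% and 15.5% of those of replicate 3 (78.9 points).

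Peak signal moved with recurrence, and the difference was present within the third and highest quartiles of signal. Inside a quartile the signal of wide and narrow footprints can still differ, and its part was not tested. In the highest quartile of peak signal, centres within 5 bp were found for 39.6% of wide (2509 of 6328) and 10.2% of narrow footprints of replicate 2, and for 72.5% (216 of 298) and 39.3% in replicate 3. In the third quartile the shares were 17.3% and 3.10% in replicate 2, and 65.4% and 31.4% in replicate 3. In the lowest quartile of replicate 2 they were 0.293% and 0.0399%, near 0 in both classes. Wide footprints with none of the 26 motifs recurred as well: 51.7% overlapped in replicate 2, against 4.37% of such narrow ones, and 98.9% against 54.6% in replicate 3.

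**Figure D5:**
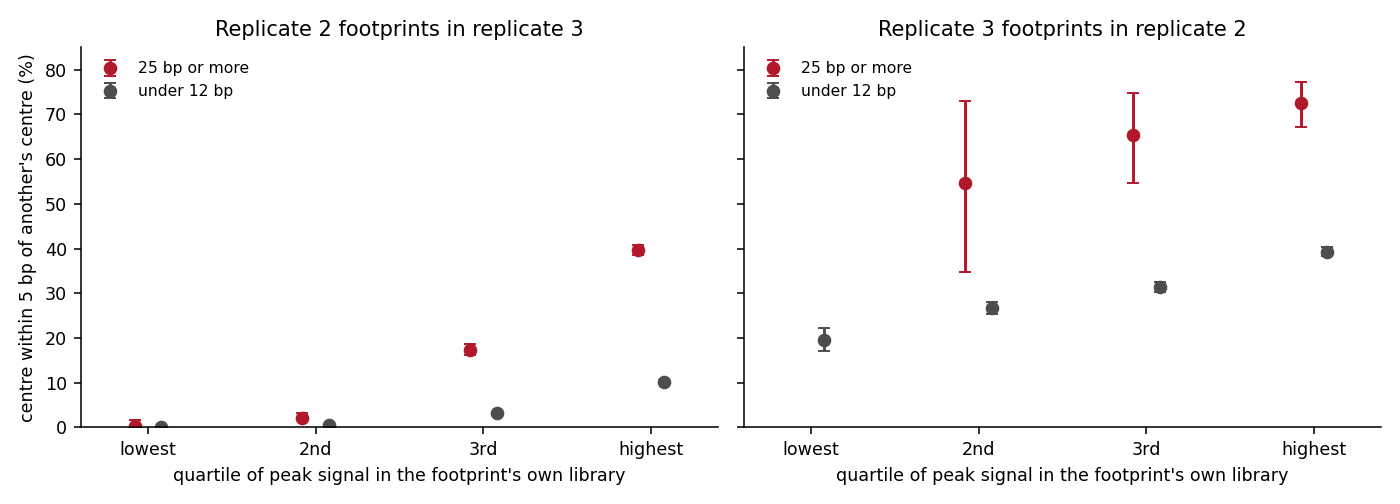
Share of footprints whose centre lay within 5 bp of a footprint centre of the other library, in percent, by quartile of the authors' peak signal, for wide footprints in red and narrow ones in grey. Points are shares and bars are Wilson 95% intervals; the lowest quartile of replicate 3 held no wide footprint.

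Wide footprints of the larger list that had a match in the smaller list mostly met narrower ones. Of the 6037 wide replicate 2 footprints that overlapped 1 of replicate 3, 335 met a wide one, 2665 met one of 12 to 24 bp and 3037 (50.3%) met a narrow one. In the other direction, 333 of the 412 wide footprints of replicate 3 (80.8%) overlapped a wide one of replicate 2. Where the centre lay in a footprint of the other library, that footprint had a median width of 13 bp in replicate 3 for wide and 9 bp for narrow footprints of replicate 2, and of 32 bp and 21 bp in replicate 2 for those of replicate 3. The mean difference in that median was 7.5 ± 4.95 bp (SD, n = 2). Some wide footprints were split: 15.3% of those of replicate 2 (1804) overlapped 2 or more footprints of replicate 3, and 31.4% of those of 40 bp or more. Seen from the other list, narrow replicate 3 footprints met wider ones of replicate 2. Those with a CTCF match of up to 1 mismatch overlapped replicate 2 in 94.8%, with a median width of 29 bp there. For those with KLF/SP, NRF1 and CREB/ATF sites it was 78.4%, 83.4% and 84.2%, with 20 bp, 21 bp and 22 bp. For those with none of the 26 motifs it was 54.6%, with 17 bp.

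There were 329 sites wide in both libraries, with 50% or more of each footprint shared. Of these 220 (66.9%) were at promoters and 109 were distal. Their median width was 34 bp in replicate 2 and 28 bp in replicate 3, with 27 bp shared and a median difference of 3 bp at either end. A CTCF match with up to 1 mismatch was in 99 of them (30.1%), and their mean GC content was 69.1%. The longest shared stretch at promoters was at Dcaf4 (45 bp), followed by Gatad2b (43 bp), which encodes a subunit of the NuRD chromatin remodeller, Helb (41 bp), a DNA helicase, Crocc (41 bp), a protein of the ciliary rootlet, and Rhpn2 (40 bp). The longest distal ones were in an intron of Trp53inp1 (45 bp), a gene induced by p53, and nearest to Pak3 (36 bp), Pllp (35 bp), Ptma (34 bp) and Rab10 (33 bp). Those not yet shown are printed here, in the direction of the CTCF core where there is one. Capitals mark the CTCF core, with 1 mismatch in each case here, and the upstream stretch.
Gatad2b (chr3:90292879-90292923, plus strand): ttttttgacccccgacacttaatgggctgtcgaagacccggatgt
Crocc (chr4:141060722-141060765, minus strand): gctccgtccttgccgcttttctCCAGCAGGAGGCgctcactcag
Trp53inp1 (chr4:11166704-11166748, minus strand): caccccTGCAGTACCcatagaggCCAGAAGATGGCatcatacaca
Pak3 (chrX:143482954-143483005, plus strand): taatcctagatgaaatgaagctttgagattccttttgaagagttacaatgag
Pllp (chr8:94704190-94704238, plus strand): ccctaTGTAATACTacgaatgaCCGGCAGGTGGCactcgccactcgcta
Rab10 (chr12:3109827-3109876, plus strand): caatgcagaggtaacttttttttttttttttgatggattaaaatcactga
The Trp53inp1 footprint had the same start and end in both libraries, and 71.1% of its bases were marked as repeat in the reference. That nearest to Rab10, 200.1 kb away, was 80.0% repeat with a GC content of 26%. The footprint nearest to Pak3 held none of the 26 motifs, with a GC content of 32.7%. It lay in a peak of signal 40.9 in replicate 2, where the median for wide footprints was 3.03. Whether footprints in repeats or in peaks of such high signal mark bound protein was not tested.

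The widest footprints of all were of mixed kinds. The 3 widest of replicate 2 were 98 bp long in a repeat stretch near Gm10718, 85 bp long between genes on chromosome 14 and 79 bp long at the start site of Tmem258. The 98 bp footprint was 100% repeat in the reference, in a peak of signal 23.0, and overlapped 3 footprints of replicate 3. The 85 bp footprint had a GC content of 64.7% and met 1 footprint of 35 bp in replicate 3. That at Tmem258 met 0. The 85 bp footprint, in which none of the 26 motifs was found, is printed here.
Chromosome 14 (chr14:104715795-104715879, plus strand): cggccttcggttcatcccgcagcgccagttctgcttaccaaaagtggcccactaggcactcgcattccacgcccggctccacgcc
The 3 widest of replicate 3, at Dcaf4 (46 bp), Trp53inp1 (45 bp) and Gatad2b (43 bp), were all wide in replicate 2 as well. Over whole classes, a repeat base was in 16.0% of wide and 11.4% of narrow footprints of replicate 2, and in 9.95% and 5.88% in replicate 3.

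Promoters with a wide footprint were those of 4230 protein-coding genes in replicate 2 (19.4% of 21827) and 336 in replicate 3 (1.54%). Among the genes with any promoter footprint, 36.7% of 11532 had a wide one in replicate 2 and 4.02% of 8354 in replicate 3. Of 20 naive T cell genes, 18 had some promoter footprint in replicate 2 and 11 in replicate 3. A wide one was at 6 of these genes in replicate 2 and at 1 in replicate 3. They were Ccr7 (homing to lymph nodes), Klf2 (quiescence and recirculation), Bach2 and Satb1 (transcription and chromatin regulators), Ets1 (a lymphoid factor) and Socs3 (an inhibitor of cytokine signals), with Klf2 in both libraries. Of 20 T cell receptor genes, 17 had some promoter footprint in replicate 2 and 9 in replicate 3. Only Rasgrp1, a Ras activator below the receptor, had a wide one in replicate 2, and 0 had one in replicate 3. Neither list was tested against the 36.7% and 4.02% of all genes with a promoter footprint. None of the 25 genes of the B cell, myeloid, erythroid and CD4 and NK cell lists had a wide one in either library. Only 5 of them had some promoter footprint in replicate 2, too few to compare. Klf2, Ets1 and Ccr7 are printed as examples of promoter footprints at genes of naive T cells, with GC boxes in capitals.
Klf2, replicate 2 (chr8:72318833-72318879, plus strand): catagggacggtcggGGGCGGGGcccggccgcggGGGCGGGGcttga
Klf2, replicate 3 (chr8:72318835-72318872, plus strand): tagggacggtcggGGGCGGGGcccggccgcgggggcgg
Ets1, replicate 2 (chr9:32695947-32695977, plus strand): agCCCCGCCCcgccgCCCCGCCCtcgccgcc
Ccr7, replicate 2 (chr11:99155094-99155121, plus strand): gagccccttttaagttgttccagagccc
At Klf2 the 47 bp footprint of replicate 2 and the 38 bp footprint of replicate 3 shared 38 bp, centred 177 and 179 bp before the start site, in peaks of signal 14.7 and 13.6. Klf2 had 2 further wide footprints in replicate 2, of 29 bp and 30 bp. The 31 bp footprint of Ets1, 60 bp before the start, held 2 GC boxes and met 2 narrower footprints of replicate 3. That of Ccr7, 31 bp before the start, held none of the 26 motifs and met 0.

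Of 10 genes of the CTCF and cohesin machinery, all with some promoter footprint in both libraries, 8 had a wide one in replicate 2 and 1 in replicate 3. Over all genes with a promoter footprint the shares were the 36.7% and 4.02% given above, and no test of the list was made. The 8 were Ctcf, the cohesin subunits Rad21, Smc1a, Smc3, Stag1 and Stag2, the loader Nipbl and the regulator Pds5b, named after their values were seen. Stag1 was the gene with one in replicate 3. At Stag1 a 32 bp footprint of replicate 2 and a 30 bp footprint of replicate 3 shared 30 bp and a CTCF site. Of 25 housekeeping genes, 12 had a wide footprint in replicate 2 and 2 in replicate 3. At Rpl3, a ribosomal protein gene, footprints of 37 bp and 30 bp at the start site shared 30 bp. Over all protein-coding genes, 257 (1.18%) had a promoter footprint wide in both libraries, and in these lists they were Klf2, Rpl3 and Stag1.

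Transfer RNA genes formed a separate small set. They are transcribed by RNA polymerase III from a promoter inside the gene, whose B box GGTTCGA is bound by the factor TFIIIC. In replicate 2, 90 of the 11806 wide footprints overlapped a tRNA gene of the RefSeq annotation (0.762%), against 143 of 94569 narrow ones (0.151%) and 0.237% of all. They covered 85 of 403 annotated tRNA genes. In replicate 3 it was 1 of 412 wide footprints (0.243%, 95% interval 0.0429 to 1.36), against 85 narrow ones (0.375%) and 0.377% of all. The replicate 2 footprints ran at the median from base 44.5 to base 75 of the gene, and 69 of the 90 held the B box. Of the 90, 41 overlapped a footprint of replicate 3. The tRNA genes with the highest peak signal among those with a B box are printed in the direction of the gene, with the B box in capitals, chosen after their values were seen.
tRNA-Leu (chr7:120917564-120917603, plus strand): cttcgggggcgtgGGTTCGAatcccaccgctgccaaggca
tRNA-Thr (chr16:13437359-13437394, plus strand): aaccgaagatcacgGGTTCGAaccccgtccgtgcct
tRNA-Glu (chr11:58302178-58302213, minus strand): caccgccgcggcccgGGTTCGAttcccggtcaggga
They had 40 bp, 36 bp and 36 bp, and each met a footprint of 7 to 12 bp in replicate 3. Near-identical tRNA copies can share reads, so the gene to which such a footprint belongs is uncertain. Among distal wide windows with no CTCF match of up to 2 mismatches, GTTCGA, a part of the B box, was in 4.82% of wide and 0.429% of narrow windows of replicate 2. That word was in 1 of 34 wide windows of replicate 3 (2.94%) and in 1.38% of its narrow ones.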

How the data were processed

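Footprints of 25 bp or more were measured in 2 DNase-seq libraries, replicates 2 and 3, mapped to mm10 per the labels. Each library has a deposited footprint list, whose value column is the constant 0.01 (a placeholder score, not used), and deposited peak lists whose signal value per peak was set by the authors on a scale the labels do not state. No aligner or caller is named (not given in the sources used here), and the lists used hold no read numbers. The shorter peak list of each library is called stricter (38223 and 17061 peaks). The longer lists (53597 and 24844 peaks) gave no result here, and the lists of false discovery rates were not used.

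Chromosome lengths of GRCm38.p6 matched mm10, and sequences and repeat marks were read from that RefSeq genome. They are reference bases, not those of the CAST/EiJ haplotype. Protein-coding genes were the 21827 symbols of the GENCODE M21 basic annotation, and tRNA genes came from RefSeq. Motifs were searched on both strands in 41 bp windows. Beside those spelled in the results, the sequence CCGGAAGT stood for ETS, while GGTGTGG stood for the KLF GT-box. For YY1 it was AAGATGGCG, and for NFY the letters CCAATCA were used. The E-box was CACGTG, the GATA site was AGATAA and that of FOXO was GTAAACA. ZEB was searched as CAGGTG, NFAT as the word GGAAAA and PU.1 as GAGGAAGT. E2F was either TTTCGCGC or, as its other form, TTTGGCGC, BANP was the word CTCGCGAG and the TATA box was TATAAA. CTCF, ISRE/IRF, REST, ZNF143, RFX, NF-kB and SRF were searched by their longer consensus. ZEB lies inside 2 of the 16 forms of the CTCF consensus. The 22 motifs other than the 4 leading ones were in 0.0144% to 3.51% of all footprint windows of replicate 2 and in 0.00334% to 3.16% of those of replicate 3.

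The class was proposed, and its gene lists and motifs were chosen, with earlier results of these data known. Width defined the members, so widths are given with no test. Named were the 3 widest footprints of each library, the 5 promoter and 5 distal footprints with the longest stretch shared and wide in both libraries, T cell list genes with a wide footprint, list genes with one wide in both, every motif, the 10 leading words of 6 bases, and 2 sequences for each of the 4 leading motifs. Sequences on chromosome 18, and those that touched an untranslated region, are not printed. A count of 0 is given with the limit of 3 counts. Overlap, motif counting and intervals were tested on simulated data: 26 of 26 motifs matched a string search, 0 of 1500 overlaps differed, and Newcombe intervals held the true difference in 94.25% to 95.05% of 2000 draws. Tools were Python 3.11.15 with scipy 1.17.1, numpy 2.4.6, pandas 2.3.3 and matplotlib 3.10.9.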

Additional observations from a re-analysis of the deposited data

How the results depend on the processing

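Values here are means of wide minus narrow over both libraries. Of 62 alternatives for 6 results, not counting those that leave out a library, 41 moved the mean by less than 1 SD of the 2 libraries. That bound is loose where the libraries differ: with 50% of each footprint shared, the recurrence difference averaged 43.8 ± 49.6 points, from 8.79 in replicate 2 and 78.9 in replicate 3. The promoter difference changed sign at a limit of 20 bp (1.31 points) and with a promoter window of 250 bp (1.04). It was -5.04 in stricter peaks, -11.9 in regions with peaks of both libraries, -7.56 against footprints of 12 to 24 bp, -4.80 with 1 footprint per peak and -0.444 with a window of 500 bp. The GC difference was 3.53 points in stricter peaks, 2.24 in regions of both libraries, 3.15 at 30 bp or more, 0.00859 against 12 to 24 bp, 5.28 at distal footprints and 5.49 after subtracting the flanks. The recurrence difference was 22.1 points against 12 to 24 bp, 48.2 at promoters, 36.6 when the centre had to lie inside and 30.95 with centres within 5 bp. The CTCF difference was 2.95 points at promoters, 18.8 at distal footprints, 27.2 with up to 1 mismatch and 35.1 with up to 2. The last 2, and recurrence in the highest quartile of peak signal (43.5 points), were added after the data were seen. Apart from changes that the alternative's own construction makes, the cause was not tested.

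With 1 library left out, the share of wide footprints ranged from 1.37% to 8.07%, the promoter difference from -4.0 to -1.66 points, the GC difference from 3.83 to 4.90, the recurrence difference from 39.1 to 46.5, the CTCF difference from 6.05 to 16.0 and the width difference in the other library from 4 to 11 bp. Wide and narrow footprints were compared within each library, so these differences are already paired by library.

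With 412 wide footprints in replicate 3, most motifs rarer than 1% could not be compared there. The deposited lists give no cut counts, so the depth behind a single footprint is unknown. Footprints in the same peak are not independent, and the intervals ignore this. Repeats and near-identical copies such as tRNA genes can share reads. DNase I has sequence preferences that can shape footprints, and their part was not tested.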
